A study of Homo sapiens with 2 samples.

Results

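Binding of GATA2 around the MYC gene was taken from a list of ChIP-seq peaks in LNCaP, a human cell line established from prostate cancer that responds to androgens. The region was chromosome 8 (hg19) from 127.60 to 129.20 Mb, and every deposited peak whose midpoint lay there was a member, which gave 25 of the 1858 peaks on chromosome 8 and of the 36797 peaks in the whole list. The choice used positions only, not scores. The series has 1 group of 2 replicate ChIP samples of unmodified LNCaP cells. These were grown in RPMI with 10% serum and held for 3 days in 5% serum stripped of steroid hormones with charcoal before chromatin was precipitated with an antibody against GATA2. All values therefore describe 1 cell line in 1 hormone-poor state, and no untreated, hormone-treated or input sample was analysed here. The 2 replicates share 1 peak list with no value for either of them, so no result below has a replicate error or a test, and read depth is unknown.

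GATA2 is a zinc-finger transcription factor that binds GATA sequence motifs, and in prostate cells it is known as a partner of the androgen receptor and of FOXA1 at enhancers. MYC encodes a transcription factor that drives cell growth and division and is often overexpressed in prostate cancer. On its centromeric side lies a long stretch poor in protein-coding genes, the gene desert of 8q24, where inherited variants associated with prostate, colorectal and breast cancer fall into separate blocks. Enhancers in this desert and in PVT1, the long noncoding RNA gene on the other side of MYC, are known to contact the MYC promoter from a distance. POU5F1B, within the desert, is a retrotransposed copy of the pluripotency gene POU5F1. In the RefSeq gene order of GRCh38.p14, used for names only, POU5F1B is preceded among protein-coding genes by LRATD2 and followed by MYC, and GSDMC is the next protein-coding gene after MYC. CASC11 directly precedes MYC in that order and PVT1 directly follows it. That build differs from the one used for the peaks, so the peaks were not placed in exons, introns or noncoding genes other than by the approximate hg19 positions of MYC (128.748 to 128.754 Mb), POU5F1B (128.43 Mb) and PVT1 (128.81 to 129.11 Mb).

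No GATA2 peak lay within 50 kb of MYC. The members were grouped into a cluster in the desert on the centromeric side, a smaller set beginning 61.1 kb past POU5F1B, and a set within PVT1, with 17 peaks before MYC and 8 after it. The number of peaks in the region was ordinary for chromosome 8, but a larger share of them than on the rest of the chromosome as a whole carried a high score. The size of this excess depended on the score limit, and not every neighbouring stretch had a smaller share than the region. The score is the value that the authors' peak caller gave each peak. It has no stated unit, and was used only to rank peaks within this list, where it ran from 80.01 to 3100. Peaks at or above 397 formed the best-scoring 25% of the whole list, and those at or above 687 formed the best-scoring 10%.

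**Figure D1:**
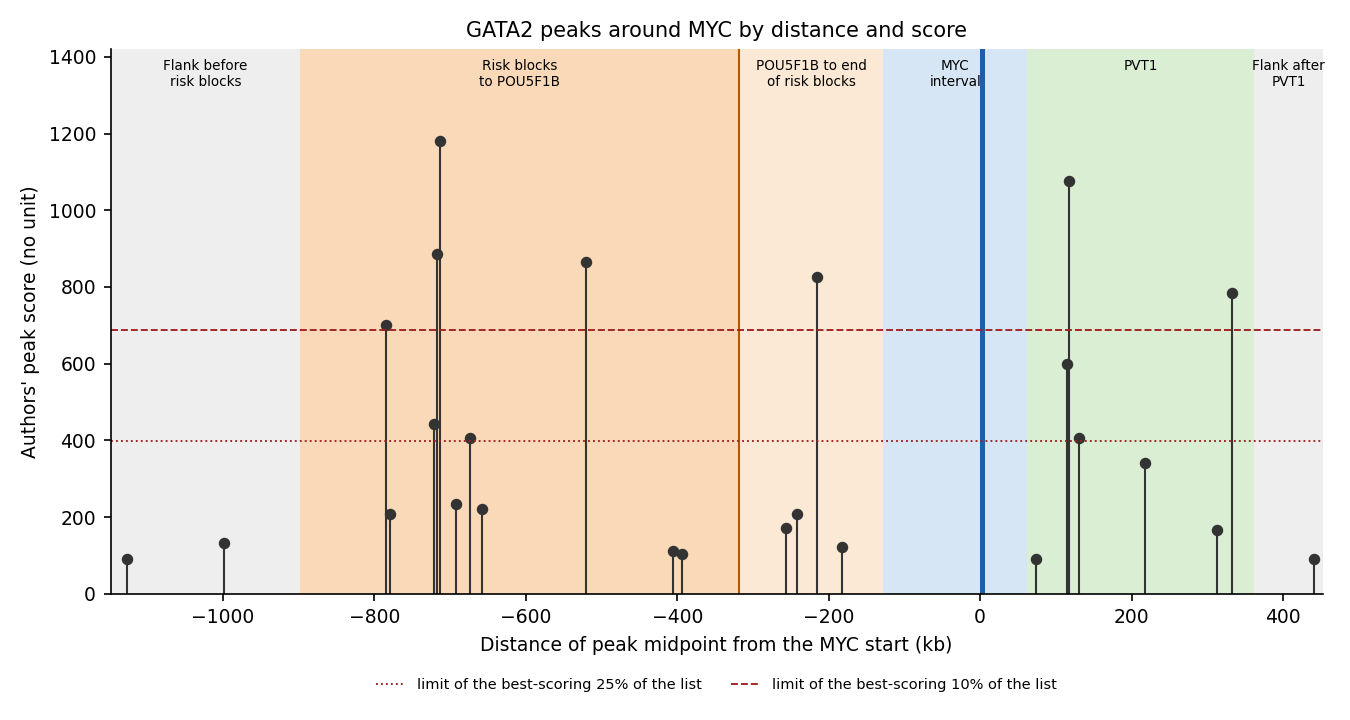
Each of the 25 GATA2 peaks is drawn at the distance of its midpoint from the MYC start (x axis, kb, negative on the centromeric side) and at the authors' score (y axis, no unit); shading marks the 6 sub-blocks, the dark blue bar MYC, the orange line POU5F1B, and the horizontal lines the score limits of the best-scoring 25% and 10% of the list. The 7 peaks above the upper limit stand in the risk blocks and in PVT1, and the interval around MYC is empty.

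The peak-free stretch that holds MYC ran from 128565005 to 128822015, a length of 257 kb, or 16.1% of the region. The peak before it (128564808 to 128565004) ended 183 kb upstream of the MYC start and scored 123.0. The peak after it (128822016 to 128822215) began 68.0 kb beyond the end of MYC, 12.0 kb inside PVT1, and scored 91.1. Both peaks that border MYC were thus weak entries of the list, with 22.8% and 7.13% of all listed peaks scoring lower. No member lay within 50 kb of MYC, 1 lay within 100 kb, 5 within 200 kb and 14 within 500 kb. Peak names in the list are numbered without a break, through this region as through the whole file, so the list as made holds no further entry between these neighbours.

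Such emptiness was not rare on the chromosome. The stretch around MYC was 6.77 times the median stretch between neighbouring peaks of chromosome 8, which was 38.0 kb, and it ranked 105 among 1855 stretches. Stretches at least as long made up 32.4% of the 140 Mb of usable chromosome length, which runs from the first to the last peak less 2 peak-free stretches longer than 2.5 Mb. Positions as far from any peak as the end of MYC made up 27.6% of that length. Between the end of the risk blocks at 128.62 Mb and the start of PVT1, an interval of 190 kb, the list held 0 peaks (95% Poisson interval 0 to 19.4 per Mb), where the density of the rest of the chromosome would give 2.51. Of 733 other stretches of the same length on chromosome 8, 142 (19.4%) also held none. An empty interval of this length was therefore within what the rest of the chromosome shows, and with depth unknown it cannot be read as absence of GATA2.

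**Figure D2:**
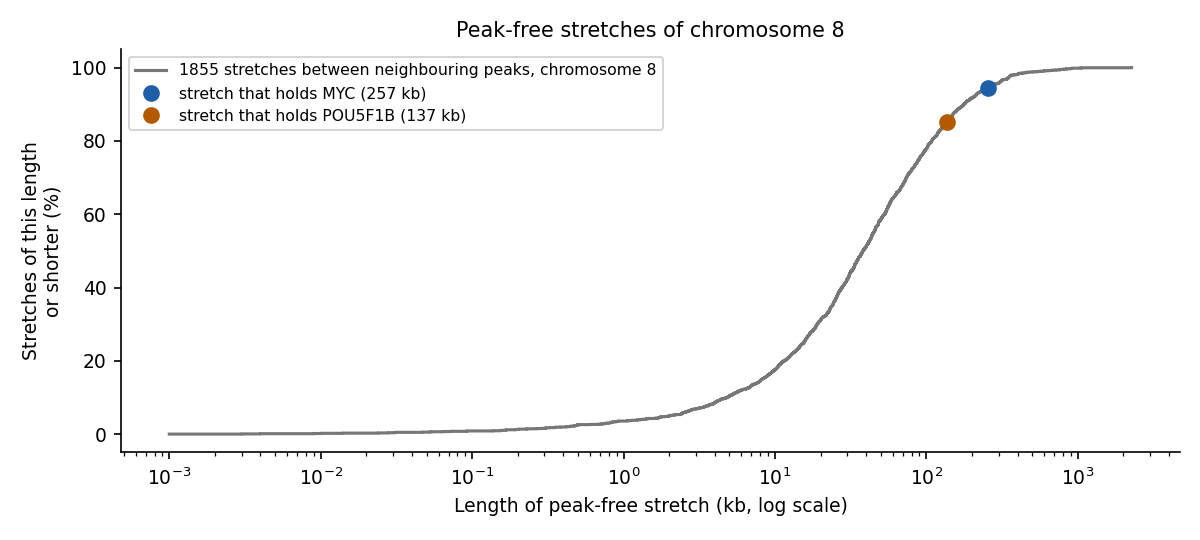
The curve gives the percentage of the 1855 peak-free stretches on chromosome 8 (y axis) that are of a given length or shorter (x axis, kb, log scale), without the 2 stretches over 2.5 Mb. The stretch that holds MYC (257 kb) and the one that holds POU5F1B (137 kb) are marked on its upper part, above the median of 38.0 kb.

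The desert before POU5F1B held the highest-scoring GATA2 peak of the region and 4 of its 7 highest. From 127.85 to 128.43 Mb, the larger part of the prostate cancer risk blocks, there were 11 peaks, or 19.0 per Mb (95% Poisson interval 9.47 to 33.9), with scores from 104.3 to 1181 and a median of 406 (95% order-statistic interval 112 to 886). Of these, 6 belonged to the best-scoring 25% of the list and 4 to the best-scoring 10%. It included a group of 3 peaks whose midpoints spanned 7.83 kb, about 713 to 721 kb upstream of MYC. They lay at 128026850 to 128027291 with a score of 441.6, at 128030713 to 128031277 with a score of 886.4, and at 128034671 to 128035135 with a score of 1181, the highest of the region and rank 36 of the 1858 peaks on chromosome 8. All 3 belonged to the best-scoring 25%. Chromosome 8 had 45 groups of at least 3 peaks with successive midpoints within 10 kb, and in 2 of them, this one included, the lowest score was at least 441.6. That limit is this group's own lowest score, so the count gives the group's rank and is no measure of rarity.

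Further peaks followed this group at intervals of 14.6 to 20.6 kb. The first (128055377 to 128055667) scored 234.0, the next (128074767 to 128075149) scored 405.9 and the last (128089389 to 128089642) scored 221.2. With them the 100 kb from 128.0 to 128.1 Mb held 6 peaks, a number reached by 16 of 1383 other bins of that size on the chromosome (1.16%). It was the fullest of the 16 bins of the region and was picked for that. The 1.16% is therefore the share for a single bin, and not for the fullest of 16.

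On the centromeric side of the group, 57.9 kb away by midpoint, lay a close pair. The peak at 127963343 to 127963729 scored 699.9 and its neighbour at 127969008 to 127969372, 5.65 kb on, scored 207.0. Towards POU5F1B the peaks thinned out. A lone peak at 128227399 to 128227908, 510 bp wide, scored 865.7 with no other midpoint within 100 kb, its nearest being 115 kb away. Past it came 2 weak peaks, at 128342667 to 128342876 with a score of 111.8 and at 128353952 to 128354130 with a score of 104.3.

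POU5F1B itself lay in a peak-free stretch of 137 kb. The nearest peak before it was the one scoring 104.3, 75.9 kb away, and the nearest after it, at 128491133 to 128491358, was 61.1 kb away and scored 171.6. Positions as far from a peak as POU5F1B made up 30.5% of the usable length of chromosome 8.

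Between POU5F1B and the end of the risk blocks 4 peaks were listed in 190 kb, or 21.1 per Mb (95% Poisson interval 5.74 to 53.9). Besides the peak just named, these were peaks at 128506033 to 128506318 with a score of 208.2, at 128531288 to 128531939 with a score of 826.0, and the last peak before MYC with its score of 123.0. The peak scoring 826.0 was, at 652 bp, the widest of the region and lay 216 kb upstream of MYC. It was the best-scoring peak within 500 kb on the centromeric side of MYC, and the other 3 of this block lay below the list's median of 212.

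PVT1 carried 7 GATA2 peaks in 300 kb, the highest density among the 6 sub-blocks at 23.3 per Mb (95% Poisson interval 9.38 to 48.1). Its scores ran from 91.1 to 1075 with a median of 407, and 4 of its peaks belonged to the best-scoring 25% of the list. A close pair lay about 52 to 55 kb into the gene, at 128861462 to 128861880 with a score of 598.4 and at 128864682 to 128865088 with a score of 1075, with midpoints 3.21 kb apart. These were the closest neighbours of the region, and the second of them was its second-highest peak, at rank 53 on the chromosome. Another peak, at 128878057 to 128878392, scored 407.0 and lay 13.3 kb farther on.

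The later part of PVT1 was sparser. A peak at 128964359 to 128964669 scored 341.0, and one at 129061197 to 129061372 scored 166.8. The peak at 129080026 to 129080449 scored 785.1, stood 270 kb into PVT1 and was the highest beyond the close pair. The intervals of PVT1 and of both parts of the risk blocks each included the density of the rest of the chromosome, 13.2 per Mb.

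The flanks held only weak peaks. In the 250 kb before the risk blocks, the peaks at 127621722 to 127621919 and 127748603 to 127748800 scored 89.6 and 132.0. In the 90 kb after PVT1, 1 peak at 129189139 to 129189320 scored 91.6. Just outside the region, the last peak before it (127576701 to 127576943) lay 23.1 kb from its edge and scored 120.0, and the first after it (129374194 to 129374545) lay 174 kb from its edge and scored 500.5. All 3 peaks of the flanks thus scored below the list's median, while all 11 members of the best-scoring 25% lay between the start of the risk blocks and the end of PVT1.

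**Figure D3:**
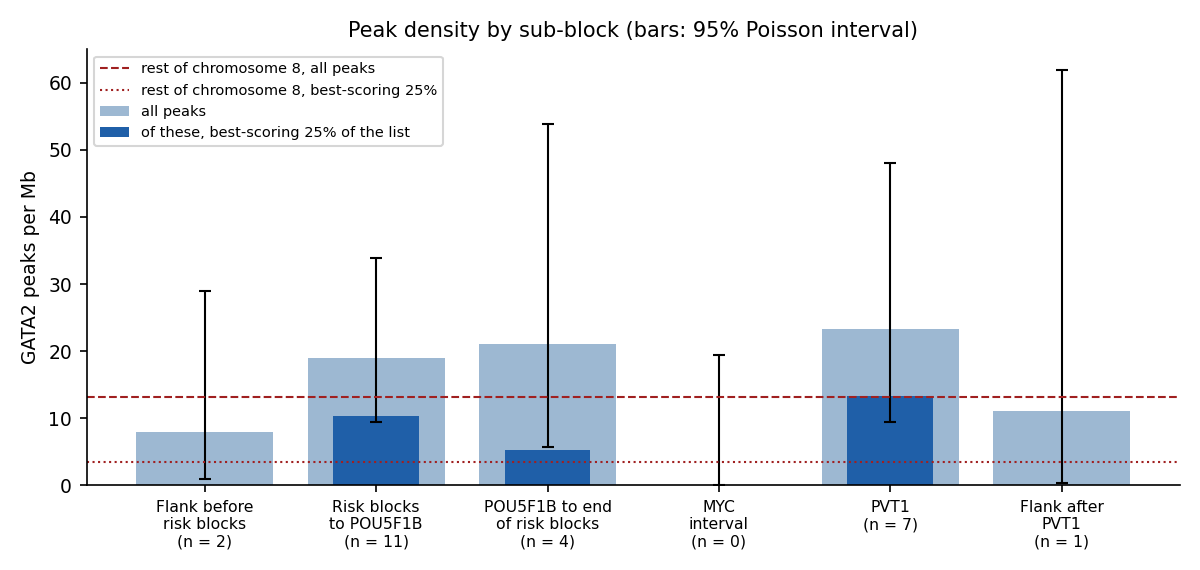
Light bars give all GATA2 peaks per Mb in each of the 6 sub-blocks with 95% Poisson intervals, which cover counting error only, and dark bars give those of the best-scoring 25% of the list; the dashed and dotted lines give the same 2 densities for the rest of chromosome 8 (13.2 and 3.48 per Mb). The risk blocks before POU5F1B and PVT1 have the tallest dark bars, at 10.3 and 13.3 per Mb, while the MYC interval has no bar.

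Set against the rest of chromosome 8, the region differed little in the number of its peaks. It held 15.6 peaks per Mb (95% Poisson interval 10.1 to 23.1), and the other 1833 peaks of the chromosome numbered 13.2 per Mb, a ratio of 1.18 (95% exact interval 0.763 to 1.75) that includes 1. When chromosome 8 was laid out in 83 other stretches of 1.6 Mb, end to end from the edges of the region, these held a median of 21 peaks and from 2 to 41, and 32 of them (38.6%) held as many as 25 or more. The median score of the members was 234 (95% interval 167 to 598), and that of the rest of the chromosome was 219, inside this interval. Median widths were 311 bp (95% interval 210 to 407 bp) and 295 bp. Wider members scored higher, with Spearman's rho of 0.91 over the 25 peaks and 0.841 over the rest of the chromosome, where score and width come from the same reads.

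The upper end of the scores differed more. Of the 25 members, 7 (28.0%, Wilson 95% interval 14.3% to 47.6%) belonged to the best-scoring 10% of the list, against 178 of 1833 (9.71%) on the rest of the chromosome. At the density of the rest of chromosome 8 the region would hold 2.05 such peaks. None of the 83 other stretches held 7 of them, the highest number being 6 and the median 2. For the best-scoring 25% the count was 11 of 25 (44.0%, Wilson 95% interval 26.7% to 62.9%), against 26.3% on the rest of the chromosome, and 5 of the 83 stretches held as many. For the better-scoring 50% it was 14 of 25 (56.0%), against 51.9%.

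The size of this excess depended on where the limit was set. In the best-scoring 5% of the list, at or above 909, there were only 2 members (8%, Wilson 95% interval 2.22% to 25%), the peaks scoring 1181 and 1075, against 5.02% on the rest of the chromosome, and 27 of the 83 stretches held as many. In the best-scoring 15% there were 8 members (32.0%), against 15.1%, and 2 stretches held as many. In the best-scoring 20% there were again 8, against 20.6%, and 10 stretches held as many. The members nearest the 10% limit of 687 scored 699.9 just inside it and 598.4 just outside. With stretches of 1.6 Mb begun every 100 kb, which overlap one another, 8 of 1322 on chromosome 8 held at least 7 peaks of the best-scoring 10%. Over all autosomes 35 of 1652 stretches laid end to end did (2.12%), and the fullest held 11, so stretches with as many high-scoring peaks occurred elsewhere in the genome. At the other limits, more stretches held as many peaks as the region. With limits at 5%, 15%, 20%, 25% and 50%, these were 29.1%, 3.56%, 12.3%, 8.25% and 30.2% of the overlapping stretches. Of the autosomal stretches they were 30.1%, 4.24%, 11.3%, 5.51% and 27.5%.

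**Figure D4:**
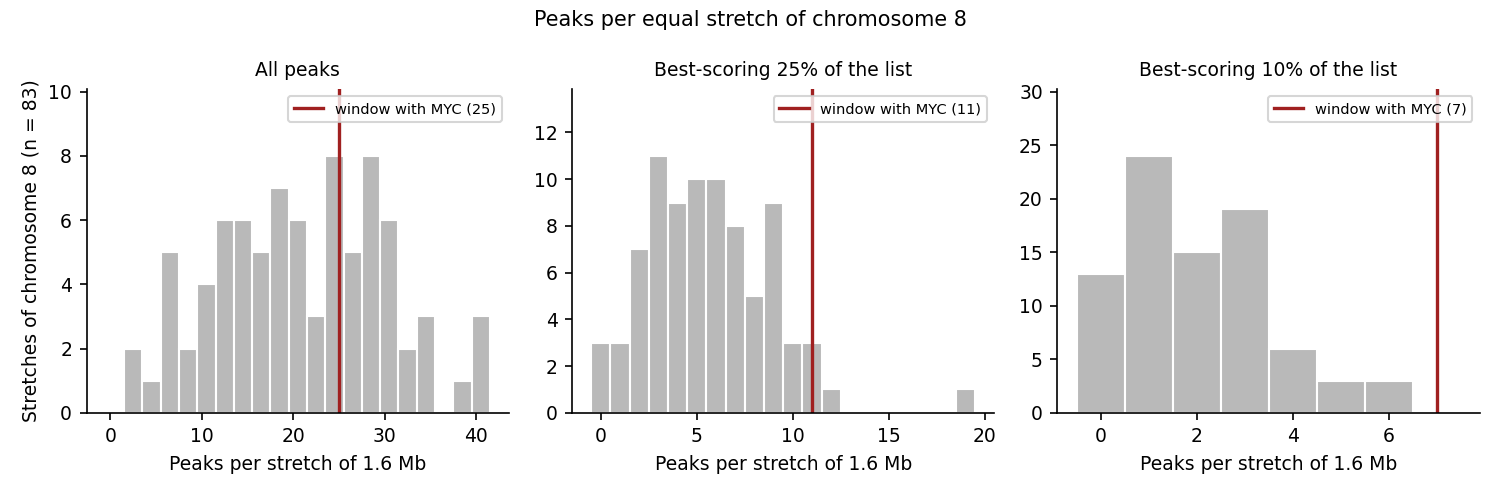
Histograms of the number of GATA2 peaks (x axis) in the 83 other stretches of 1.6 Mb on chromosome 8 (y axis, number of stretches), for all peaks (bars 2 peaks wide), the best-scoring 25% and the best-scoring 10% of the list; the red line is the region with MYC. The line falls within the bulk of the bars for all peaks (25), in the upper tail for the best-scoring 25% (11), and beyond the highest bar for the best-scoring 10% (7 against at most 6).

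High-scoring members also stood close to one another. A neighbouring midpoint within 10 kb was found for 7 of the 25 members (28.0%), close to the 30.0% of peaks on the rest of the chromosome. Within 5 kb it was found for 5 members (20%), against 17.6%, and within 20 kb for 17 members (68.0%, Wilson 95% interval 48.4% to 82.8%), against 50.4%, so the shares were closer at the shorter distances. Among peaks of the best-scoring 25%, however, 5 of the 11 members (45.5%, Wilson 95% interval 21.3% to 72.0%) had another peak of that class within 10 kb, against 21 of 482 (4.36%) on the rest of the chromosome. These 5 are the group of 3 in the desert and the pair in PVT1, so the share rests on 2 places and not on 5 independent peaks. The comparison was made after these groups had been seen. Without the group of 3 the region held 5 peaks of the best-scoring 10% among 22 (22.7%) and 8 of the best-scoring 25% (36.4%).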

How the data were processed

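The series deposited 1 list of peaks in hg19, to which reads were aligned with Bowtie, per the submitters' processing notes. The caller was MACS, per the names given to the peaks in the deposited file. The score column was deposited by the authors with no stated scale. Not given in the sources used here are tool versions, use of a control library, treatment of duplicates and pooling of replicates. Labels do not say whether the replicates were separate cultures beyond calling them biological duplicates.

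Starts were converted to 1-based positions. Members, window and the edges of the 6 sub-blocks came from rounded hg19 positions; members and lists were chosen with earlier results of these data known. Since there were at most 40 members, all were named. Medians have exact order-statistic intervals, shares Wilson intervals, counts exact Poisson intervals and density ratios conditional exact binomial intervals, each at 95% and for counting error only. Only the intervals of the density ratio and of the median were tested on simulated data. The simulated counts followed a Poisson distribution. Real counts per 100 kb varied more, with a variance over mean of 1.70 in the region and 1.50 on the rest of chromosome 8. No sequence, motif or expression data were used. Alternatives covered score limits, merging of peaks under 500 bp apart, membership, window edges, background, length and neighbour distance. Python 3.11.15, numpy 2.4.6, pandas 2.3.3, scipy 1.17.1 and matplotlib 3.10.9 were used.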

Additional observations from a re-analysis of the deposited data

How the results depend on the processing

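Recomputing the results under other settings gave 88 values. Of these, 72 lay inside the 95% interval of the main value (for the number of members, a factor of 1.5 was allowed). Direction was assessed only for the density ratio, which was reversed at no setting. Some of the 72 values could not move. The members' median score does not depend on the background, and inner sub-blocks keep their edges when the window is widened or narrowed. The tally is therefore no measure of robustness. With the better-scoring 50% and best-scoring 25% of the list, which hold fewer peaks by construction, the 25 members became 14 and 11, their median score 649 and 785 (400 and 602 on the rest of the chromosome) and their median width 413 and 424 bp. The 95% intervals of these median scores, 341 to 886 and 407 to 1075, included the values of the rest of the chromosome. The density ratio of 1.18 was 1.27 (95% interval 0.694 to 2.15) and 1.98 (0.981 to 3.57) in these subsets. Both intervals included equal density. Both flanks fell to 0 peaks per Mb in each subset, and the block after POU5F1B to 5.26. The flank after PVT1 also fell to 0 when the window was narrowed by 50 kb at both ends. With a neighbour distance of 20 kb, 68.0% of members had a neighbour, against 50.4% of peaks on the rest of the chromosome. The share in the best-scoring 10%, 28.0%, became 8% with a limit at 5%, where fewer peaks qualify by construction. The limits of 5%, 15% and 20%, the overlapping and autosomal stretches and the omission of the group of 3 were chosen after seeing the data. Leaving out a replicate was not run, as neither replicate has values of its own. No paired analysis was possible because the samples form a single group.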

Other observations

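The stretches of 1.6 Mb on either side of the region with MYC held fewer high-scoring peaks than it by number, but not in every case by share. The one on the centromeric side also held 25 GATA2 peaks, of which 6 belonged to the best-scoring 25% of the list and 2 to the best-scoring 10%. The one on the telomeric side held 9 peaks, of which 5 belonged to the best-scoring 25% and 1 to the best-scoring 10%. The corresponding counts in the region with MYC were 25, 11 and 7. As a share of its peaks, the best-scoring 25% made up 24% on the centromeric side, 44.0% in the region and 55.6% on the telomeric side, and the best-scoring 10% made up 8%, 28.0% and 11.1%. The first peak beyond PVT1 to reach the best-scoring 25% (129374194 to 129374545) scored 500.5, and the next one on (129435910 to 129436333) scored 740.3.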
